A study of Saccharomyces cerevisiae with 6 samples.

Results

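The mitochondrial ribosome of budding yeast makes the few proteins that mitochondrial DNA encodes, most of which are core subunits of the respiratory chain and the ATP synthase. All but one of its proteins are encoded by nuclear genes, made in the cytosol and imported. Its large subunit holds the peptidyl transferase centre and its small subunit decodes the mRNA. Some of its proteins belong to families found in ribosomes of all domains of life, some to families shared only with bacteria, and others are specific to mitochondria. The genes described here are those whose names follow the numbered pattern of this ribosome, that is, *MRPL*, *MRPS*, *RSM* or *MRP* and a number. The pattern found 65 of the 5297 genes listed, and the choice used no measured value. By the family names of RefSeq, 36 of them belong to the large and 28 to the small subunit. The remaining gene, *MRP8*, is no longer held to encode a ribosomal protein. *RSM22*, which RefSeq places in the small subunit, encodes a predicted RNA methyltransferase and has no family name there. The other 63 genes have one and are the structural genes in what follows.

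mRNA was sequenced from 6 meiotic cultures, 3 of *SPO11* cells and 3 of *spo11-YF* cells, whose Spo11 cannot cut DNA, so that no meiotic breaks form. Spo11 is the conserved enzyme that starts meiotic recombination. Both diploid strains have the SK1 background and lack *NDT80*, so that cells stay in meiotic prophase, and both lack the phosphatase gene *PPH3*. The paper describes transfer of the cells to potassium acetate medium and harvest for RNA at a single time in meiosis. All levels below hold for that medium and time. The study asked how breaks change the meiotic transcriptome. The value used here is 1 number per gene, the authors' average normalized count for that gene across the whole set of libraries. It therefore describes the level in both strains together. It carries no SD, no value per culture and no depth per library, and the strains are not compared here. Fewer copies per cell and fewer cells that express a gene cannot be told apart in such cultures.

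The level of a gene is given below as its mean normalized count divided by its coding length in kilobases, taken from the S288C reference (R64), because a long transcript yields more fragments than a short one at the same abundance. All 65 genes matched R64 by systematic name. For levels, all genes are only those with a row, and percentiles are among them. None has an intron there, and none shares a stretch of 31 bases with the coding sequence of another gene. *MRPL51*, *MRP4* and *MRPL19* each overlap 1 further annotated gene, which has no row among those analysed here. The stage of the cultures was checked with marker genes. The 8 genes of meiotic prophase had a median of 2487 normalized counts per kilobase, at percentile 98.0 of all genes. The 6 genes that need Ndt80 had a median of 71.0, at percentile 17.9. Of these, 5 lay below the median of all genes, and *SPS2* lay above it with 311.9, at percentile 72.3. *NDT80* and *PPH3* have no row among those analysed here.

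The mRNAs of this ribosome share a sequence downstream of their reading frames. Puf3 is an RNA-binding protein of the Pumilio family that binds 3′ untranslated regions of mRNAs for mitochondrial proteins through the motif TGTANATA, where N is any base, and affects their decay and their place in the cell. In the 200 bases after the stop codon, read on the coding strand of R64, 63 of the 65 genes hold this motif, which is 96.9%. Among all 6002 nuclear protein-coding genes of R64, 844 hold it, which is 14.1%. The sites below come from the RefSeq sequence of R64 and stand for the genes with high, middle and low levels described later and for each of the bases found at N. Capitals mark the motif, and each stretch has 11 bases on either side.

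*MRPS12*: atacaacctttTGTAAATAgcaatgaccat
*RSM18*: atagttctgtcTGTAAATAtacaatatgta
*MRP20*: cccctcacactTGTATATAcggagcaaact
*MRPL13*: ttttaatatccTGTACATAtatatactctt
*MRPL3*: gtttgccatttTGTAGATAgagaactcctt
*MRP7*: ttaagaatgccTGTAAATAttactattttg
*MRPL32*: aaacttaagccTGTATATAgaaacttaatt
*MRPS8*: tatacggaccaTGTAAATAataatattata
*MRPL39*: ttcatttatccTGTAAATAagtaatggata

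The form TGTAAATA is held by 35 of the 65 genes, TGTATATA by 21, TGTACATA by 17 and TGTAGATA by 1, *MRPL3*, and 13 genes hold the motif more than once. The first motif starts 51 bases after the stop codon at the median, from 8 in *MRPS5* to 139 in *MRPS9*. In 44 of the 63 genes (69.8%) the base 2 positions before the first motif is C, as in the sites of *MRP7*, *MRPL39* and *MRPL13*. Of the 844 genes of R64 with the motif in this window, 835 have that base after the stop codon, and in 29.1% of these it is C. All 36 large-subunit genes hold the motif, as do 27 of the 28 small-subunit genes. The 2 genes without it are *RSM22* and *MRP8*, which are also the 2 without a ribosomal protein family in RefSeq.

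**Figure D1:**
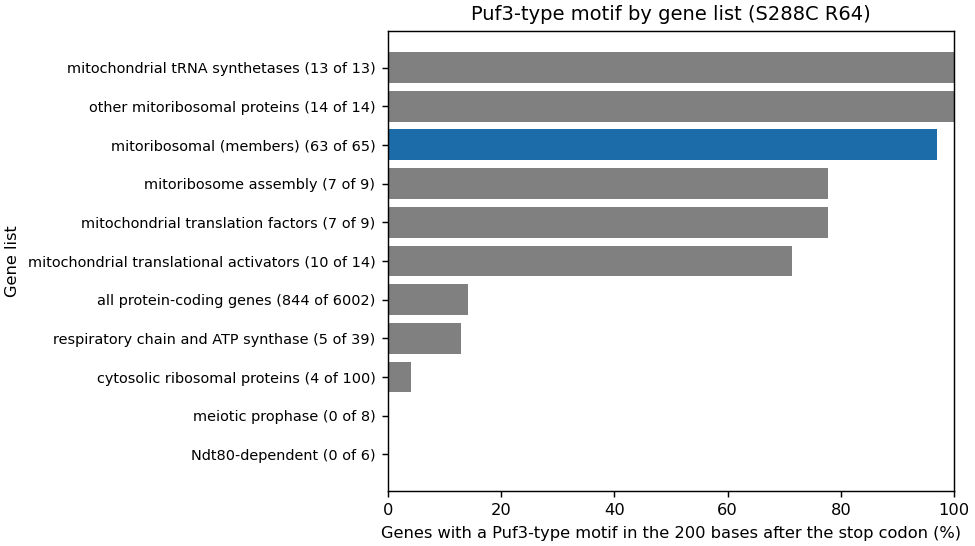
Share of genes, in percent, with a Puf3-type motif in the 200 bases after the stop codon in S288C R64, by gene list, with the counts beside each name. The genes of the mitochondrial ribosome stand at 63 of 65, against 844 of 6002 for all protein-coding genes and 4 of 100 for cytosolic ribosomal proteins with a row.

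Lists of other nuclear genes for mitochondria differed widely in this share. All 14 further genes for mitochondrial ribosomal proteins hold the motif, 13 whose names do not follow the numbered pattern and *MRP35*, which the table lists under its systematic name only, and so do all 13 listed mitochondrial tRNA synthetase genes. The share was 7 of 9 for mitochondrial translation factors, 7 of 9 for assembly factors of the mitochondrial ribosome and 10 of 14 for translational activators. In contrast, 5 of 39 genes of the respiratory chain and ATP synthase hold it (12.8%), and 4 of the 100 genes with a row for cytosolic ribosomal proteins. A match of letters is not a measured binding site. *PUF3* itself had a mean of 1141 normalized counts, which is 432 per kilobase, at percentile 81.4.

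Among the genes with a row, the mRNAs of the mitochondrial ribosome were of lower than typical abundance in these meiotic cultures. The 65 genes had a median level of 128.3 normalized counts per kilobase, against 165.0 over the 5276 genes with a coding length, which places their median at percentile 39.0. R64 holds 6002 nuclear protein-coding genes, and the lowest mean of any row is 8.21 normalized counts. Genes without a row are not ranked, so the percentile among all genes of R64 is unknown. Of the 65 genes, 43 lay below the median of all genes and 22 above it, 18 lay below percentile 25 of all genes and 7 above percentile 75. By definition, 1319 of the 5276 genes lie below percentile 25 and 1319 above percentile 75. The count of 18 is near that share, and the count of 7 is below it. The middle of the set, from its percentile 25 to its percentile 75, ran from 84.2 to 240.9. The whole set took 7996 of the 2759217 mean normalized counts of the table, or 0.290%, and makes up 1.23% of the listed genes. The gap between these shares does not give the level of a typical gene of the set. Counts here are not divided by length, and the median coding length was 714 bases in the set, against 1284 over all genes. The total also holds genes with very high means, up to 42628 in *ACS1*, while the median mean count of all genes with a name was 218.9. As no value per culture is used, the order of neighbouring genes could not be set against their spread.

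**Figure D2:**
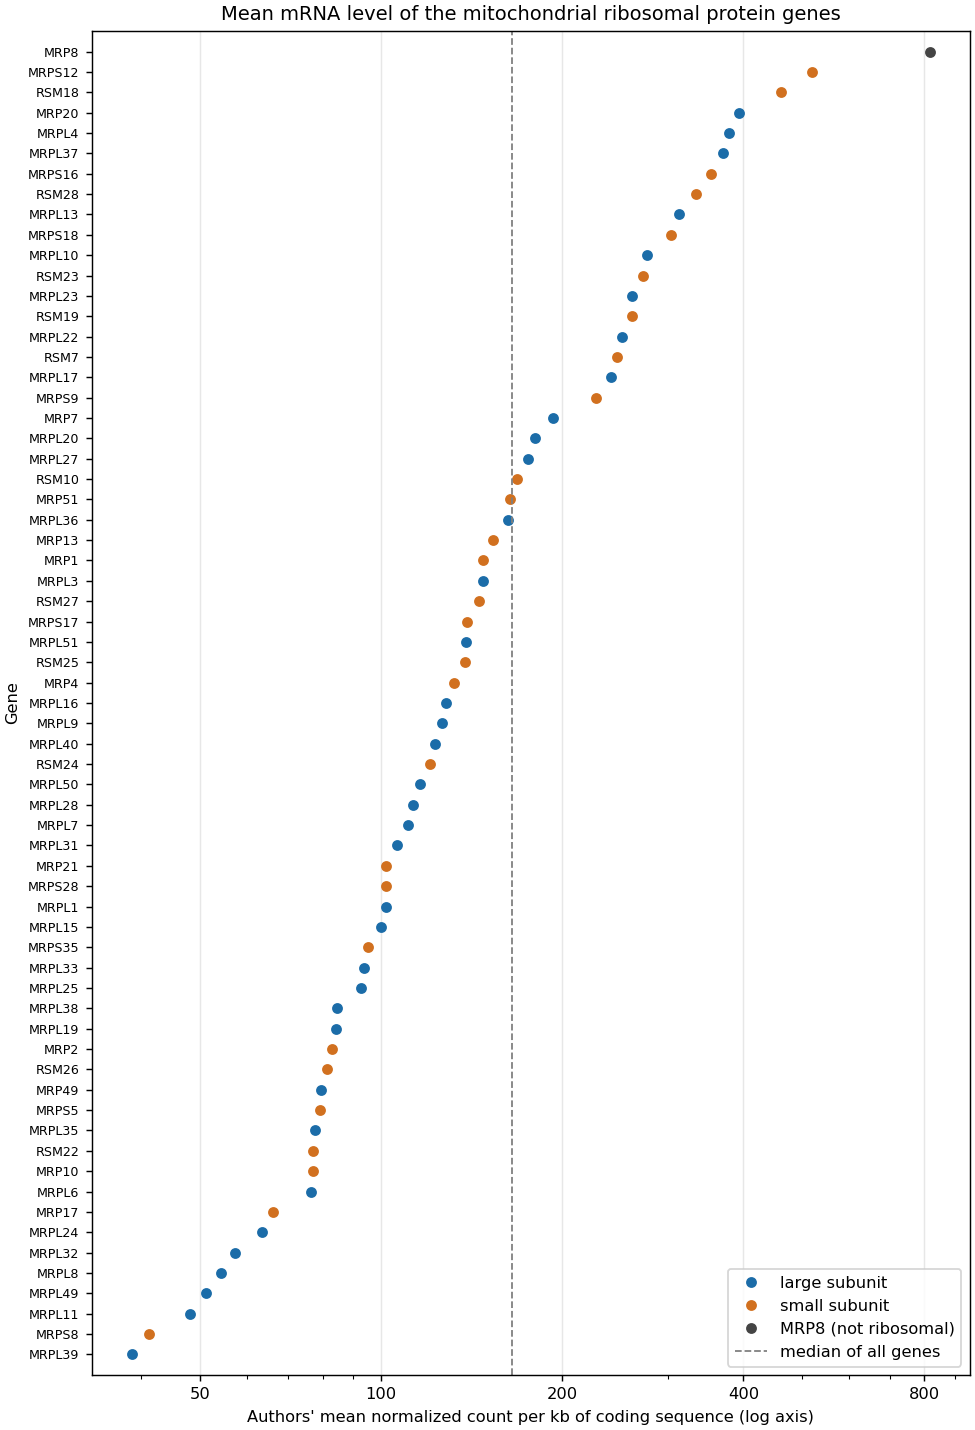
Level of each of the 65 genes as the authors' mean normalized count per kilobase of coding sequence, on a log axis, coloured by subunit. The dashed line is the median of all genes, 165.0. *MRP8* is highest at 816.0 and *MRPL39* lowest at 38.5.

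*MRP8*, the gene that is not ribosomal, stood at the top of the order with 816 normalized counts per kilobase (mean 539 counts), 1.57 times the level of the next gene. It alone took 6.74% of the counts of all 65 genes. The highest structural gene was *MRPS12*, for the protein of family uS12m at the decoding site, with 519 per kilobase (mean 240.0 counts), at percentile 85.1. *RSM18*, for bS18m, followed with 462 (mean 192.8). *MRP20*, for uL23m, which lies at the exit of the peptide tunnel, had 394 (mean 312.0). *MRPL4*, for uL29m, a further protein of the tunnel exit, had 378 (mean 363). The first 2 of these 4 genes belong to the small and the other 2 to the large subunit, so neither subunit held the top of the order alone. Next came *MRPL37*, for mL54, with 371 per kilobase (mean 117.9), *MRPS16*, for bS16m, with 354 (mean 129.6), and *RSM28*, for mS46, with 333 (mean 362). The mean counts of these genes differ more than 3-fold while their levels per kilobase lie close, since *MRPL37* has 318 coding bases and *RSM28* 1086.

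At the other end, *MRPL39* had 38.5 normalized counts per kilobase. It encodes bL33m, the shortest protein of the set with 70 residues. Its mean of 8.21 normalized counts is the lowest of any gene with a row, and genes without a row are not ranked. *MRPS8*, for uS8m, had 41.2 per kilobase (mean 19.3 counts), and *MRPL11*, for uL10m of the ribosomal stalk, had 48.1 (mean 36.1). These 3 genes lay at or below percentile 9.22 of all genes. *MRPL49*, for bL21m, had 51.2 per kilobase (mean 24.9), *MRPL8*, for bL17m, 54.1 (mean 38.8), and *MRPL32*, for bL32m, 57.1 (mean 31.5). The protein of *MRPL32* is matured by the m-AAA protease in the mitochondrial matrix, a step known to be needed for ribosome assembly. *MRPL24*, for bL28m, had 63.3 (mean 49.2) and *MRP17*, for bS6m, 66.3 (mean 26.2). Of these 8 lowest genes, 6 encode large-subunit proteins, namely *MRPL39*, *MRPL11*, *MRPL49*, *MRPL8*, *MRPL32* and *MRPL24*. In the whole set, 36 of the 65 genes do, and the difference was not tested. Although the proteins enter 1 particle, the levels of the 63 structural genes spanned 13.5-fold.

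The median level was 114.6 normalized counts per kilobase for the 36 large-subunit genes and 142.2 for the 28 small-subunit genes, a ratio of 0.806. The ranges overlapped almost fully, from 38.5 to 393.9 in the large and from 41.2 to 519.4 in the small subunit. Mean counts summed to 3798 for the large and 3659 for the small subunit.

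Sorted by family, the large-subunit proteins shared with bacteria had the lowest levels. The 8 genes of this class had a median of 60.2 normalized counts per kilobase, at percentile 13.2 of all genes, and 7 of them lay below the median of all genes. The exception was *MRP7*, for bL27m, which reaches the peptidyl transferase centre in bacteria, with 192.9 per kilobase. *MRPL36*, for bL31m, lay just below the median of all genes with 162.9, at percentile 49.4. Large-subunit genes of universal families had a median of 123.1 (15 genes, from 48.1 in *MRPL11* to 393.9 in *MRP20*). Those specific to mitochondria had a median of 138.5 (13 genes), from 77.7 in *MRPL35*, for mL38, to 371 in *MRPL37*. The lowest gene of the mitochondria-specific class thus lay above the median of the class shared with bacteria, and *MRP7* lay above the medians of all classes.

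In the small subunit, the classes differed less. The median was 153.4 normalized counts per kilobase for the 12 universal families, from 41.2 in *MRPS8* to 519.4 in *MRPS12*. It was 163.6 for the 5 families shared with bacteria, from 66.3 in *MRP17* to 462.4 in *RSM18*. For the 10 mitochondria-specific proteins it was 141.8, from 77.0 in *MRP10*, for mS37, to 333.1 in *RSM28*. The low median of the class shared with bacteria was therefore seen in the large subunit and not in the small one, with no test of that difference. *RSM22*, which stands outside these classes, had 77.1 per kilobase and the longest coding sequence of the set, 1887 bases.

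**Figure D3:**
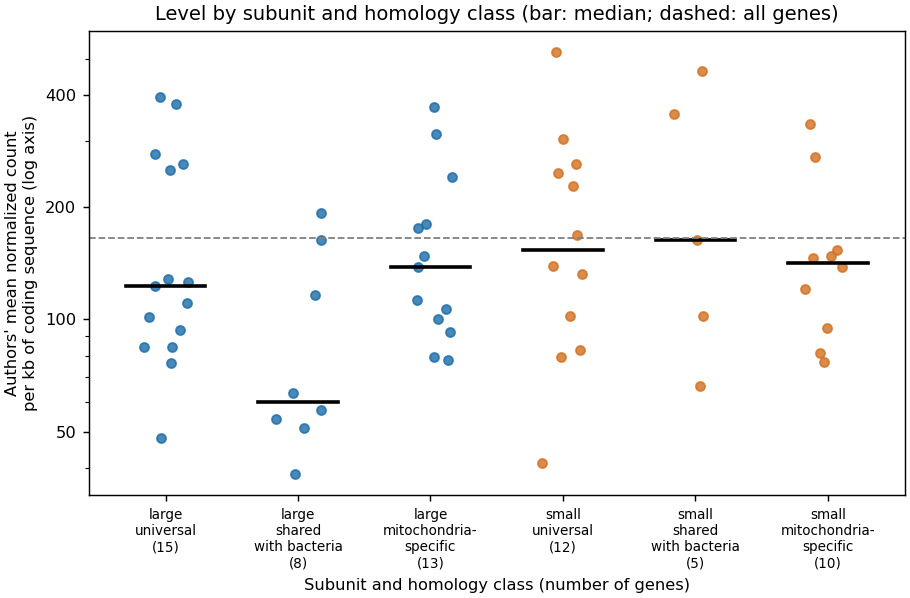
Level per kilobase of coding sequence, on a log axis, for the 63 structural genes by subunit and family class. Points are genes, bars are medians and the dashed line is the median of all genes. The bar of the large-subunit class shared with bacteria is lowest, at 60.2, with 1 of its 8 points, *MRP7*, above the dashed line.

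Most reading frames of the set were short. Their median coding length was 714 bases, against 1284 over all genes, and 27 of the 65 genes were shorter than 600 bases. Across the 65 genes, coding length and mean count had a Spearman correlation of 0.61, which is across genes of the same libraries and has no test. Between coding length and level per kilobase it was 0.15. Over the 5276 genes with a coding length, the same 2 correlations were 0.47 and -0.08. After *MRPL39*, the shortest reading frames were those of *MRPL33*, for uL30m, with 86 residues and a mean of 24.5 counts, and *RSM19*, for uS19m, with 91 residues and a mean of 72.0. Their levels were 93.7 and 261.0 per kilobase. The longest after *RSM22* were those of *RSM23*, for mS29, a GTPase-like protein with 450 residues, and *MRP4*, for uS2m, with 394 residues. *RSM23* had a mean of 368 counts and a level of 272, and *MRP4* had 156.9 and 132.4. In mean counts alone, 19 of the 65 genes (29.2%) were below 50, against 10.7% of all genes with a name.

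**Figure D4:**
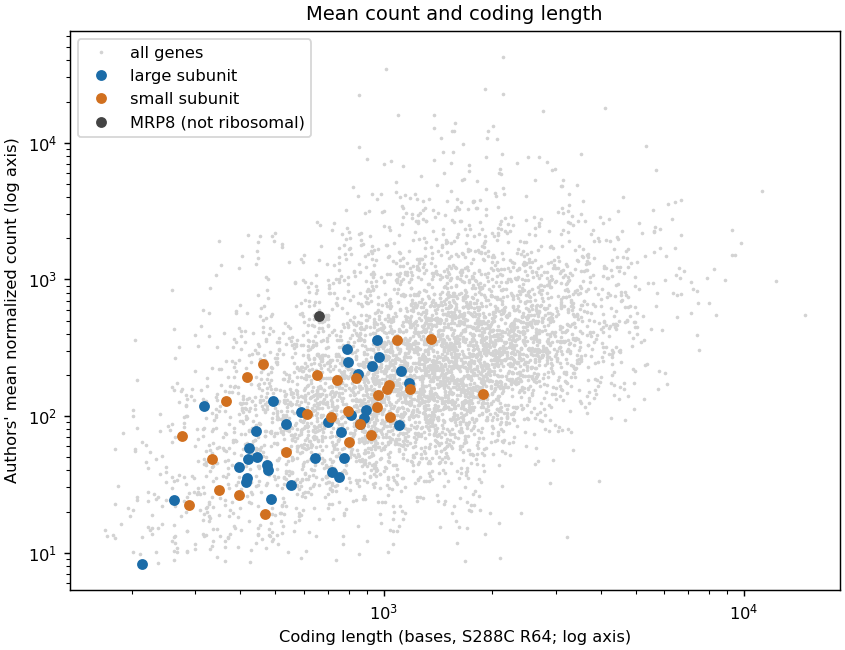
The authors' mean normalized count against coding length in S288C R64, both on log axes, for all genes (grey) and the 65 genes by subunit. Most of the 65 genes lie toward the short and low end. Their lengths run from *MRPL39* (213 bases, 8.21 counts) to *RSM22* (1887 bases, 145.5 counts), and the highest count is that of *MRP8* (660 bases, 538.6 counts).

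The 14 nuclear genes for further proteins of this ribosome had a median of 156.2 normalized counts per kilobase, at percentile 47.6, and all of them lay within the range of the numbered set. The highest were *EHD3*, for mS47, with 251.2, *IMG1*, for bL19m, with 245.4, and *IMG2*, for mL49, with 194.9. The lowest were *MRX14*, for bL34m, with 86.6, *RTC6*, for bL36m, with 70.9, and *MRP35*, for bL35m, with 54.2. These 3 lowest genes are again large-subunit proteins shared with bacteria, while *IMG1* and *MNP1*, for bL12m, with 160.7, are of the same class and lay higher. *VAR1*, the mitochondrially encoded protein of the small subunit, has no row among those analysed here, and neither does *MRPL44*.

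The mitochondrial ribosome stood below the respiratory complexes. The 39 nuclear genes of the respiratory chain and ATP synthase, most of whose complexes also hold subunits made on mitochondrial ribosomes, had a median of 613 normalized counts per kilobase, at percentile 87.9 and 4.78 times that of the 65 genes. Only *MRP8* lay above that median per kilobase. With no division by length the ratio of the medians was 3.04, and the respiratory median stood at percentile 60.5. The 100 genes with a row for cytosolic ribosomal proteins had a median of 228.9 per kilobase, which is 1.78 times that of the 65 genes, and ranged from 35.1 to 1118. Genes of that family without a row are not covered. In mean counts with no division by length the medians were 98.0 and 97.3, a ratio of 1.01, so that this difference was seen only per kilobase. Many of these are paralog pairs between which reads can be split, so that single values are uncertain.

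**Figure D5:**
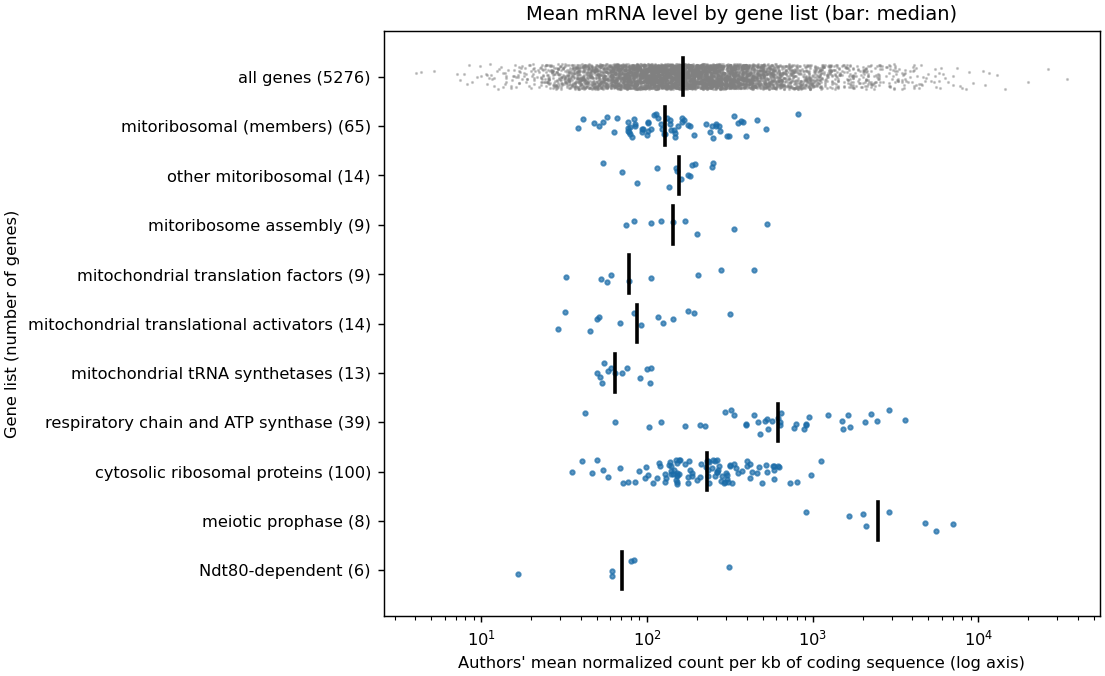
Level per kilobase of coding sequence, on a log axis, for all genes and for each gene list, with the number of genes beside each name and a bar at the median. The mitochondrial ribosome (median 128.3) lies below the respiratory chain (613) and below the genes of meiotic prophase (2487).

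The 65 genes are spread over 14 chromosomes, with at most 12 on 1 of them. Only *MRPS12* and *RSM19* are next to each other among the genes with a row. They lie in the same direction, 229 bases apart in R64, and had 519.4 and 261.0 normalized counts per kilobase, a ratio of 1.99.

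Promoters were searched for 3 motifs on both strands, from 250 bases before to 50 after the start of the reading frame in R64. The motif TTACCCG of the general regulatory factor Reb1 was found in 10 of the 65 windows (15.4%), against 7.08% of all 6002 windows. The genes with it had a median level of 157.8 normalized counts per kilobase and those without it 120.7, and the ranges overlapped. The element AAAAATTTT, which is common upstream of genes for cytosolic ribosome assembly, was found in 4 windows (6.15%, against 6.98%). The core CCAAT of the Hap complex, a regulator of respiratory genes, was found in 27 (41.5%, against 43.3%). A match here is a description of the letters in the window.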

How the data were processed

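The authors sequenced poly(A) RNA in paired reads and ran the nf-core RNA-Seq pipeline against the SK1 genome. The authors then batch-corrected the gene counts of salmon with ComBat-Seq and passed them to DESeq2. Adapter trimming with Trim Galore and mapping with STAR are named in the submitters' processing notes, and no versions are given in the sources used here. The deposited table has 5297 rows. Its signal column, the only one used, gives, per gene, the authors' average of normalized counts across libraries. The other numeric columns hold the authors' comparison of the strains (a fold change with its error, a statistic and p-values) and were not used. Therefore the count test planned for the strains was not run, and every value is a description. ComBat-Seq and the size factors change the mean of a gene by an amount that cannot be computed without values per library. Dividing by coding length ignores untranslated sequence, which raises the level of short genes. The libraries were also selected by size, and the effect of that step on short genes was not assessed.

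Coding lengths and sequence windows came from RefSeq S288C R64, to which 5276 rows matched by systematic name. SK1 differs from S288C, so no coordinates are given and a site may differ in SK1. The 1 row without a gene name (0.00559% of the total) was left out of medians. Windows after a stop codon can reach into the next gene. Motif and window functions were tested on simulated data. The 65 genes and the gene lists were chosen with earlier results of these data known. The genes named by rule are the 8 highest and 8 lowest per kilobase, the 3 longest and 3 shortest, and the ends of each class. The rule also names *MRP8* and *RSM22*, and the 3 highest and 3 lowest further genes. Genes named from the lists for mitochondrial translation, *SPS2*, *PUF3* and genes without a row do not come from this rule. *MNP1*, *MRPL3*, *MRPL36*, *MRPS5*, *MRPS9*, *MRPL13*, the genes of overlaps and the neighbouring pair were named after their values were seen. The Puf3 motif was chosen after seeing the files. The alternatives were no division by length, an added 200 bases, other members, a minimum mean of 10, the geometric mean and other windows. Values were computed in Python 3.11.15 with pandas 2.3.3, numpy 2.4.6 and scipy 1.17.1, and plotted with matplotlib 3.10.9.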

Additional observations from a re-analysis of the deposited data

How the results depend on the processing

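No paired analysis was possible because the column used here is 1 average across libraries per gene. Without values of single libraries, leaving out replicates, other count models and count filters per library were not run, and depth per library is unknown. The median of the 65 genes, 128.3 normalized counts per kilobase, was also 128.3 without *MRP8* and *RSM22*, 138.0 with the further ribosomal genes and 99.9 with 200 bases added to each coding length. Undivided, the median mean count was 97.3. The percentile of the median, 39.0, was 39.7 among genes with a mean of at least 10, 35.4 with 200 bases added and 23.8 with no division by length. The placing below the middle of all genes with a row thus held in all 4 settings, and its size depended on length. The ratio of the large to the small subunit, 0.806, was 0.724 with no division by length, 0.831 for geometric means, 0.787 without *MRP8* and *RSM22*, 0.833 with the further genes and 0.773 with 200 bases added. The median of the respiratory genes over that of the 65 genes, 4.78, was 3.04 with no division by length and 4.17 with 200 bases added, and that of the cytosolic ribosomal genes, 1.78, was 1.01 and 1.51. With no division by length the direction turned for the mitochondrial tRNA synthetases (1.07 in place of 0.501), translation factors (1.14 in place of 0.605) and translational activators (1.37 in place of 0.682). With the bases upstream of the start alone, the promoter share of AAAAATTTT was 1.54% in place of 6.15% (all genes 6.73% in place of 6.98%), that of CCAAT was 29.2% in place of 41.5% (all genes 35.4% in place of 43.3%), and that of TTACCCG was 15.4% in both (all genes 7.03% and 7.08%). The share of genes with the Puf3-type motif, 96.9% (all genes 14.1%), was 89.2% in the 100 bases after the stop codon (all genes 10.1%). In 300 bases it was 96.9% (all genes 16.2%). The added 200 bases, the settings for these other gene lists and the Puf3 windows were chosen after seeing the data.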

Other observations

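Of 4 other lists of nuclear genes for mitochondrial translation, the tRNA synthetases, translation factors and translational activators had medians per kilobase below the 128.3 of the ribosome, and the assembly genes had a median above it. The direction of the first 3 depended on the division by length, since their reading frames are longer, with medians of 1611, 1314 and 1390.5 bases against 714. Undivided, their median mean counts were 103.9, 110.9 and 133.7, against 97.3 for the ribosome. The 13 mitochondrial tRNA synthetase genes, which charge the tRNAs of the organelle, had a median of 64.3 normalized counts per kilobase, at percentile 15.2 of all genes. Their levels lay close together, from 49.8 in *MSY1* to 105.3 in *MSR1*, a span of 2.11-fold. The 9 translation factors had a median of 77.6 and spanned 13.7-fold, from 32.4 in *IFM1*, an initiation factor, to 444 in *TUF1*, the elongation factor that brings aminoacyl-tRNA to the ribosome. *MEF2*, whose product is known to act in ribosome recycling, had 279.8, and *MEF1*, the translocation factor, had 105.0.

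The 14 translational activators, each of which serves 1 or a few mitochondrial mRNAs, had a median of 87.5 normalized counts per kilobase. *MSS51*, which acts in synthesis of Cox1, was highest with 319.0. *CBP6* and *PET309* were lowest with 28.9 and 32.1. *CBP3*, whose product forms a complex with that of *CBP6* at the tunnel exit, had 175.7. The 9 assembly genes had a median of 143.9. *YTA12* and *AFG3*, which encode both subunits of the m-AAA protease, were highest with 533 and 333, and the helicase gene *MRH4* and the GTPase gene *GEP3* were lowest with 83.2 and 74.8. These values have no spread between cultures.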
